A study of Mus musculus with 20 samples.

Results

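*Txnip*, *Ddit4*, *Pik3ip1*, *Irs2*, *Sesn1*, *Sesn3*, *Foxo1* and *Foxo3* are 8 of the 39017 genes measured by RNA sequencing in mouse T lineage leukemias. They were selected on their behavior between the libraries lettered VEH and DEX in these same data and on their shared place around the FOXO factors and the PI3K/AKT/mTOR pathway. Their VEH and DEX values are therefore given as a description, and the calls of the fit for them on that contrast are printed once beside the share of all genes and support nothing. All 8 genes were among the 11339 with a mean of at least 1 FPKM (fragments per kilobase of exon per 1000000 counts), which were the genes tested.

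Growth factor receptors activate PI3 kinase (PI3K), which recruits and activates the kinase AKT. AKT phosphorylates FOXO transcription factors and thereby keeps them out of the nucleus, and it drives growth through the mTORC1 complex. Several proteins restrain this pathway at different steps, and in T lineage cells it is a frequent target of leukemia mutations. Txnip binds thioredoxin and limits glucose uptake, Pik3ip1 inhibits PI3K at the membrane, Ddit4 (also called REDD1) restrains mTORC1 through the TSC complex, and the sestrins restrain mTORC1 through GATOR2. Irs2 is an adaptor that links insulin and IGF receptors to PI3K.

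The study asked how far leukemias induced by insertional mutagenesis (IM) with the retrovirus MOL4070LTR resemble human T-ALL. Polyadenylated RNA came from bone marrow of mice transplanted with leukemias of the C57Bl/6 x 129Sv/Jae F1 strain. There were 20 libraries, 2 from each of 10 leukemias named 20M, 2M, 73A, 73M, 78A, 5C, 8633, JW14, JW81 and 4638. By the study's methods the recipients were irradiated wild-type mice 8 to 12 weeks old. The letters VEH and DEX stand only in the column names of the table, 1 library of each per leukemia, and neither the labels nor the study's text says what they mean. No treatment is therefore asserted here. Nothing says outright whether the libraries of a leukemia came from separate animals, so the p-values measure the spread between these libraries, which may in part be technical. The study describes RNA sequencing of 9 leukemias without listing them. The names of 9 of the labelled leukemias stand in its overview of altered genes, while 4638 does not and a name with the same digits in another order does. Since it is not known whether that is the same leukemia, 4638 was kept out of the fit, which held 18 libraries of 9 leukemias.

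Totals of the 18 fitted libraries ran from 8226528 to 201222288 expected counts, with a median of 24451898, and 3 counts on a transcript of 1 kb corresponded to 0.0149 to 0.365 FPKM. In 5 libraries ribosomal RNA genes took 21.6 to 64.05 CPM (counts per 1000000), against at most 0.00497 in the others. They comprised the VEH library of 5C and, in 20M, JW81, 73M and JW14, the DEX library. The 12 T lineage markers summed to 525 to 1315 FPKM in VEH and 548 to 1183 FPKM in DEX, with none at 0 in any library, and the sum was lower in DEX in 7 of 9 leukemias. Markers of other marrow cell types differed in level among the libraries. Neutrophil markers summed to 44.9 to 4560 FPKM in VEH and 20.8 to 2716 FPKM in DEX and were lower in DEX in 7 of 9 leukemias, and myeloid markers summed to 13.6 to 568 and 10.1 to 328 FPKM and were also lower in 7 of 9. Erythroid markers summed to 1.90 to 769 FPKM in VEH and 3.75 to 102 in DEX, and B lineage markers to 0.545 to 29.8 and 0.580 to 5.57, with the largest fall of both lists in 73M. The erythroid sum was higher in DEX in 6 of 9 leukemias and the B lineage sum in 4 of 9. *Pax5*, *Cd22*, *Cd79b* and *Ms4a1* of the B lineage, *Elane* and *Cd14* of the myeloid list and *Slc4a1* of the erythroid list were at 0 in at least 1 library. The part of these cells in the values below was not tested, and in bulk marrow fewer cells of a type and less RNA per cell cannot be told apart. The libraries of 8633 and JW14 were about as alike as the libraries of 1 leukemia: across genes, Pearson's r of log2(FPKM + 1) was 0.953 to 0.982 over their 4 pairs, 0.927 to 0.990 within leukemias and 0.807 to 0.958 in other pairs. These leukemias are counted below as separate, as they are labelled.

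The promoters of *Txnip* and *Irs2* are shown because they were the members with a searched motif before the transcription start, where FOXO, MondoA or MYC type factors can bind. The sequences are from RefSeq, build GRCm38.p6, and capitals mark matches. Distances to motifs are counted from the RefSeq start, which differs from that of the GENCODE gene given with the values for *Irs2*, *Sesn1* and *Foxo3*. The *Txnip* stretch is chr3:96557707-96557956 on the plus strand, which ends at the base before the gene. It holds the FOXO element GTAAACA 121 bases before the start and CACGAG 85 and 74 bases before it. The *Irs2* stretch is chr8:11008941-11009000 on the minus strand and holds the E-box CACGTG 44 bases before the RefSeq start, which lies 471 bases upstream of the GENCODE gene.
Txnip promoter: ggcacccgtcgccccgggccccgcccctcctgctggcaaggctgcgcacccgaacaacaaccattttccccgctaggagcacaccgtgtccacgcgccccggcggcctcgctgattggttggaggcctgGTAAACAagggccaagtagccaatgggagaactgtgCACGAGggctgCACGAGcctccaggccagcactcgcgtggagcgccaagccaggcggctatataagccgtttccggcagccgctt
Irs2 promoter: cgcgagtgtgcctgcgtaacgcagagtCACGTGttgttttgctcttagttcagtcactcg

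Motifs were searched as exact letters on both strands, in windows of 250 bases before to 50 bases after each start. All 8 genes had a window and 9 windows were found for them. GTAAACA was in 3.65% of all 32851 windows and in those of *Txnip* and *Sesn1*, where it began 22 bases after the RefSeq start, which lies 639 bases inside the GENCODE gene. CACGTG was in 7.15% of all windows and in that of *Irs2* among the members. CACGAG was added after the *Txnip* sequence had been seen. It was in 6.47% of all windows and in those of *Txnip* and *Foxo3*. The glucocorticoid element AGAACA, 3 bases, TGTTCT was in 0.00913% of all windows and in no window of the members. A match of letters is a description and not a binding site.

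*Txnip*, *Ddit4* and *Pik3ip1*, which restrain glucose uptake, mTORC1 and PI3K in that order, were higher in the DEX than in the VEH library of all 9 leukemias. *Txnip* (ENSMUSG00000038393, chr3:96557957-96561883, plus strand, GRCm38) was the most abundant of the 8 genes. Its lowest, median and highest VEH levels were 29.5 FPKM in 8633, 67.6 FPKM and 105 FPKM in JW81. In DEX they were 65.4 FPKM in JW14, 177 FPKM and 316 FPKM in 73M. Every leukemia was higher in DEX, but the ranges of the VEH and DEX groups overlapped because leukemias low in VEH were also low in DEX. The means were 66.9 ± 26.7 and 183.6 ± 83.4 FPKM (SD, n = 9). The ratio of DEX to VEH ran from 1.91 in 78A to 4.02 in 73M, and the mean log2 ratio was 1.43 ± 0.35 (SD, n = 9). The fit across all genes gave a log2 difference of 1.48 with a standard error of 0.11.

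*Ddit4* (ENSMUSG00000020108, chr10:59949669-59951834, minus strand), a stress-induced inhibitor of mTORC1, had lowest, median and highest levels of 12.45 FPKM in 5C, 30.9 FPKM and 62.1 FPKM in 78A among VEH libraries. Among DEX libraries they were 22.5 FPKM in 5C, 111 FPKM and 153 FPKM in 73M. The means were 35.0 ± 17.1 and 96.9 ± 49.6 FPKM (SD, n = 9). The size of the difference varied more among leukemias than that of *Txnip*, with a mean log2 ratio of 1.38 ± 0.64 (SD, n = 9). It was largest in 73A, from 19.4 to 95.0 FPKM, a ratio of 4.90. It was smallest in 8633, from 30.9 to 38.55 FPKM, a ratio of 1.25. The groups overlapped, and the fitted log2 difference was 1.44 with a standard error of 0.19.

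*Pik3ip1* (ENSMUSG00000034614, chr11:3330401-3342971, plus strand), the membrane inhibitor of PI3K, was at 10.0 FPKM in 5C, a median of 17.6 FPKM and 25.45 FPKM in JW81 among VEH libraries. Among DEX libraries it was at 14.1 FPKM in 5C, a median of 30.3 FPKM and 48.55 FPKM in JW81. The same leukemias were thus lowest and highest in both, and the groups overlapped. The ratio of DEX to VEH ran from 1.24 in JW14 to 2.09 in 73A. The means were 16.7 ± 5.00 and 27.9 ± 11.3 FPKM, the mean log2 ratio was 0.68 ± 0.26 (SD, n = 9), and the fitted log2 difference was 0.74 with a standard error of 0.09.

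**Figure D1:**
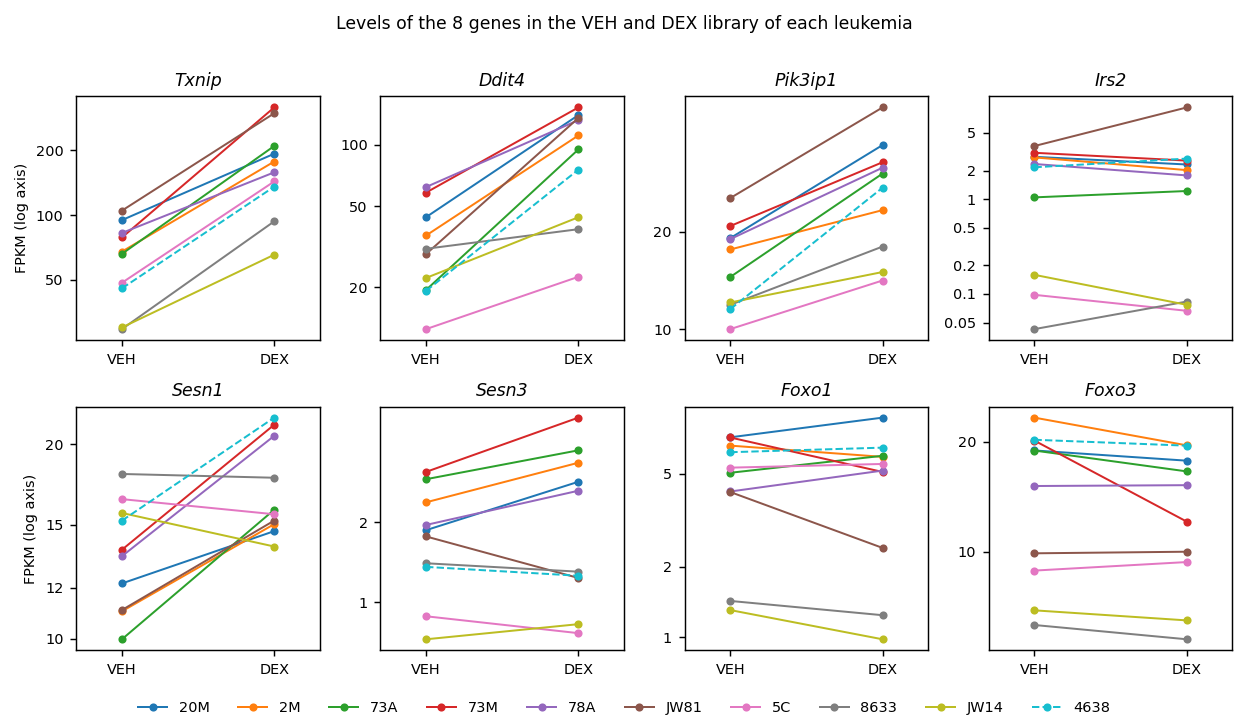
Level of each of the 8 genes in FPKM (log axis) in the VEH and the DEX library of each leukemia. A line joins the libraries of 1 leukemia, and the dashed line is 4638, which was not in the fit. *Txnip*, *Ddit4* and *Pik3ip1* are higher in DEX in all 9 fitted leukemias, while the lines of *Irs2*, *Foxo1* and *Foxo3* go both ways.

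The sestrins differed less between the letters. *Sesn1* (ENSMUSG00000038332, chr10:41809935-41908424, plus strand), a stress-responsive sestrin, had lowest, median and highest levels of 9.985 FPKM in 73A, 13.4 FPKM and 18.0 FPKM in 8633 in VEH. In DEX they were 13.9 FPKM in JW14, 15.6 FPKM and 21.4 FPKM in 73M. It was higher in DEX in 6 of 9 leukemias, by up to 1.585 times in 73A. The 3 leukemias lower in DEX were 5C (16.4 to 15.6 FPKM), 8633 (18.0 to 17.7 FPKM) and JW14 (15.7 to 13.9 FPKM), which were the 3 with the highest VEH levels. Since the VEH level is part of the ratio, that match can arise by arithmetic alone. The mean log2 ratio was 0.31 ± 0.33 (SD, n = 9) and the fitted log2 difference was 0.37 with a standard error of 0.10.

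*Sesn3* (ENSMUSG00000032009, chr9:14275067-14333101, plus strand), a sestrin known as a FOXO target, was lower overall. Its VEH levels were 0.727 FPKM in JW14, a median of 1.865 FPKM and 3.085 FPKM in 73M, and its DEX levels 0.766 FPKM in 5C, a median of 2.62 FPKM and 4.93 FPKM in 73M. It was higher in DEX in 6 of 9 leukemias and lower in 5C, 8633 and JW81, where it went from 1.77 to 1.23 FPKM. The groups overlapped, and the mean log2 ratio of 0.21 ± 0.41 (SD, n = 9) was smaller than its spread.

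*Foxo1*, *Foxo3* and *Irs2* had no common direction. *Foxo1* (ENSMUSG00000044167, chr3:52268336-52353221, plus strand), a factor that keeps T cells in circulation and quiescence, had VEH levels of 1.31 FPKM in JW14, a median of 5.04 FPKM and 7.14 FPKM in 20M. Its DEX levels were 0.982 FPKM in JW14, a median of 5.15 FPKM and 8.66 FPKM in 20M. It was higher in DEX in 4 of 9 leukemias, with a mean log2 ratio of -0.13 ± 0.38 (SD, n = 9). *Foxo3* (ENSMUSG00000048756, chr10:42181841-42276755, minus strand), a relative that activates death and stress genes, had VEH levels of 6.30 FPKM in 8633, a median of 15.1 FPKM and 23.3 FPKM in 2M. Its DEX levels were 5.76 FPKM in 8633, a median of 12.1 FPKM and 19.55 FPKM in 2M. It was higher in DEX in 3 of 9 leukemias, with a mean log2 ratio of -0.16 ± 0.24 (SD, n = 9). The most different pair was 73M, at 20.1 FPKM in VEH and 12.1 FPKM in DEX.

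*Irs2* (ENSMUSG00000038894, chr8:10984681-11008458, minus strand) was higher in DEX in 3 of 9 leukemias, with a mean log2 ratio of -0.05 ± 0.77 (SD, n = 9). The pair of JW81 went from 3.63 to 9.26 FPKM, a ratio of 2.55, and the other 5 leukemias above 1 FPKM had ratios of 0.735 to 1.17. In 5C, 8633 and JW14 the gene had 4 to 38 counts per library, and the ratios of 0.483 to 1.95 there rest on those counts.

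Of all genes tested, 13.0% passed an adjusted p of 0.05 between DEX and VEH (edgeR quasi-likelihood test with leukemia as a block). The share higher in DEX was 6.22% and the share lower was 6.79%. Among the members, *Txnip*, *Ddit4*, *Pik3ip1* and *Sesn1* passed, 4 of 8, and all were higher in DEX. This count is a description, since the members were selected on that contrast. The call of *Sesn1* was lost without 20M, 2M, 73A, 73M, 78A or JW81 in turn, with a term for the libraries with ribosomal RNA counts, and in either set of leukemias with or without such counts. *Ddit4* and *Pik3ip1* were not called in the 5 leukemias with such counts. With no leukemia block the calls of *Txnip*, *Ddit4*, *Pik3ip1* and *Sesn1* were all lost. Over the 4 leukemias without ribosomal RNA counts in either library, the mean log2 ratio was 1.41 ± 0.34 for *Txnip*, 1.33 ± 0.84 for *Ddit4*, 0.70 ± 0.28 for *Pik3ip1* and 0.43 ± 0.31 for *Sesn1* (SD, n = 4). Over the 5 with such counts it was 1.44 ± 0.39, 1.42 ± 0.55, 0.67 ± 0.28 and 0.22 ± 0.35 (SD, n = 5). The sign turned for *Foxo1*, at 0.04 ± 0.26 (SD, n = 4) and -0.27 ± 0.43 (SD, n = 5), and for *Irs2*, at 0.085 ± 0.66 and -0.16 ± 0.90. It was kept for *Sesn3*, at 0.29 ± 0.27 and 0.15 ± 0.51, and for *Foxo3*, at -0.14 ± 0.11 and -0.17 ± 0.33. *Txnip*, *Ddit4* and *Pik3ip1* were higher in DEX in every leukemia of both kinds.

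**Figure D2:**
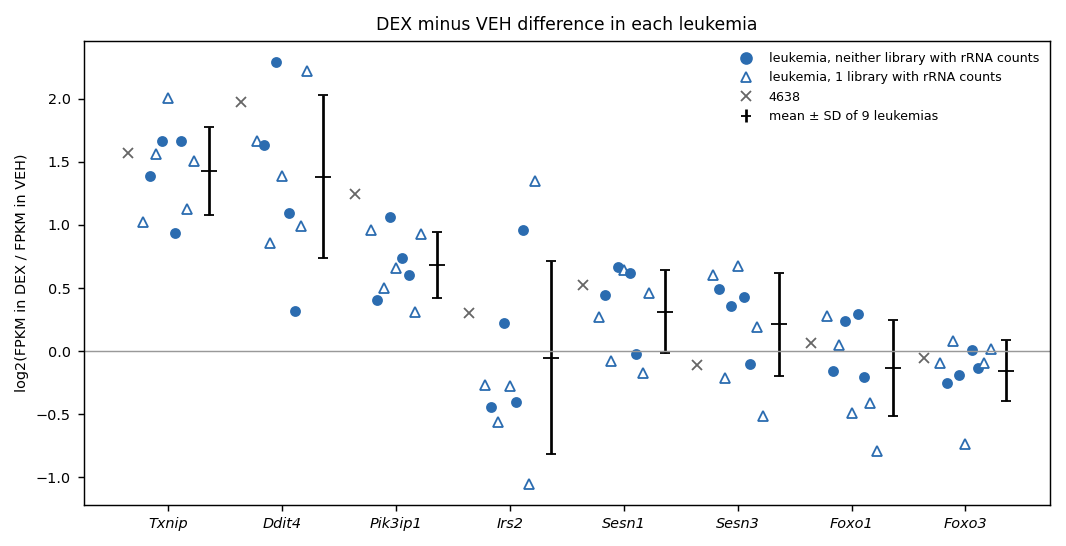
Difference between the libraries of each leukemia as log2 of the FPKM in DEX over that in VEH, for each of the 8 genes. Filled circles are the 4 leukemias with no ribosomal RNA counts, open triangles the 5 with them in 1 library, crosses 4638, and bars the mean ± SD of 9 leukemias. *Txnip*, *Ddit4* and *Pik3ip1* lie above 0 in all 9, and *Ddit4* and *Irs2* are spread most widely.

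Levels among leukemias are a different contrast from the one that selected the genes. Between leukemias 82.5% of all genes tested passed (edgeR, the leukemia term of the same fit), and 7 of the 8 members did, a share close to that of all genes. *Irs2* had an adjusted p of 1.13e-06, *Foxo3* 4.69e-06, *Foxo1* 7.24e-06, *Sesn3* 3.09e-05, *Pik3ip1* 0.000105, *Txnip* 0.000113 and *Ddit4* 0.0019. *Sesn1* did not pass at 0.162. Its VEH levels differed by 1.80 times between the lowest and the highest leukemia, and across the 9 leukemias its VEH and DEX levels had a Pearson's r of 0.189 on the log2 scale. For the other 7 genes that r ran from 0.769 to 0.957, so a leukemia high in VEH was mostly high in DEX.

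On the log2(FPKM + 1) scale the highest and the lowest leukemia of *Irs2* differed by 2.70, close to the 2.43 of *Ddit4*, and with a pseudocount of 0.1 by 5.19. It was at 0.0426 to 0.159 FPKM in 5C, 8633 and JW14 and at 1.04 to 9.26 FPKM in the libraries of the other 6. From low to high the order was 8633, 5C, JW14, 73A, 78A, 2M, 20M, 73M and JW81, and 3 of the 8 neighbouring pairs were apart, meaning that the ranges of their 2 libraries did not overlap. These were JW14 from 73A, 73A from 78A and 73M from JW81. The NOTCH target *Dtx1*, chosen after its values were seen, was at 0.0399 to 0.285 FPKM in 5C, 8633 and JW14 and at 41.0 to 154.5 FPKM in the other 6. In VEH the same 3 leukemias also had the lowest levels of *Txnip* (29.5 to 48.4 FPKM, against 66.0 to 105), *Pik3ip1* (10.0 to 12.1 FPKM, against 14.5 to 25.45), *Sesn3* (0.727 to 1.40 FPKM, against 1.77 to 3.085) and *Foxo3* (6.30 to 8.88 FPKM, against 9.90 to 23.3). *Sesn1* lay the other way, at 15.65 to 18.0 FPKM against 9.985 to 13.7, and the levels of *Foxo1* and *Ddit4* overlapped. In DEX *Irs2*, *Txnip*, *Pik3ip1* and *Foxo3* again did not overlap between these 3 and the other 6. *Ddit4* did not overlap in DEX either (22.5 to 44.1 FPKM, against 95.0 to 152.8), while *Sesn1*, *Sesn3* and *Foxo1* did. Leukemia 4638, with *Dtx1* at 0.180 FPKM in VEH and 0.386 in DEX, was like them in some genes and not in others. Its VEH levels of *Txnip* (45.6 FPKM), *Pik3ip1* (11.5 FPKM), *Ddit4* (19.2 FPKM) and *Sesn3* (1.36 FPKM) were inside the ranges of 5C, 8633 and JW14, while those of *Irs2* (2.17 FPKM), *Foxo1* (6.17 FPKM) and *Foxo3* (20.3 FPKM) were outside them. Its *Sesn1* level (15.2 FPKM) lay just below the range of these 3 and above that of the other 6. In DEX *Txnip* (135 FPKM) and *Sesn3* (1.26 FPKM) of 4638 were inside the ranges of these 3, and *Pik3ip1* (27.4 FPKM), *Ddit4* (75.6 FPKM), *Irs2* (2.68 FPKM), *Foxo1* (6.45 FPKM), *Foxo3* (19.5 FPKM) and *Sesn1* (22.0 FPKM) outside them. The share of all genes that do not overlap between 5C, 8633 and JW14 and the other 6 was not computed. The division thus cannot be read as particular to the members. The part of *Dtx1* or of the NOTCH pathway in these levels was not tested.

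*Foxo1* and *Foxo3* were the members with the most neighbours apart. A range runs from the VEH to the DEX library of a leukemia, so a difference between the letters widens it and lowers this count. The count thus depends in part on the contrast that selected the genes and does not rank the members by how far leukemias differ. For *Foxo1* the order from low to high was JW14, 8633, JW81, 78A, 5C, 73A, 73M, 2M and 20M, and 4 of 8 neighbouring pairs were apart. JW14 and 8633 held 0.982 to 1.43 FPKM, and the next library, in JW81, was at 2.41 FPKM. For *Foxo3* the order was 8633, JW14, 5C, JW81, 78A, 73M, 73A, 20M and 2M, and 5 of 8 pairs were apart. The lowest 4 leukemias were all apart from each other and lay at or below 10.0 FPKM. *Foxo1* and *Foxo3* had a Pearson's r of 0.881 over the mean log2 levels of 9 leukemias, but 5C combined a *Foxo1* level of 5.30 and 5.49 FPKM with a *Foxo3* level of 8.88 and 9.37 FPKM.

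**Figure D3:**
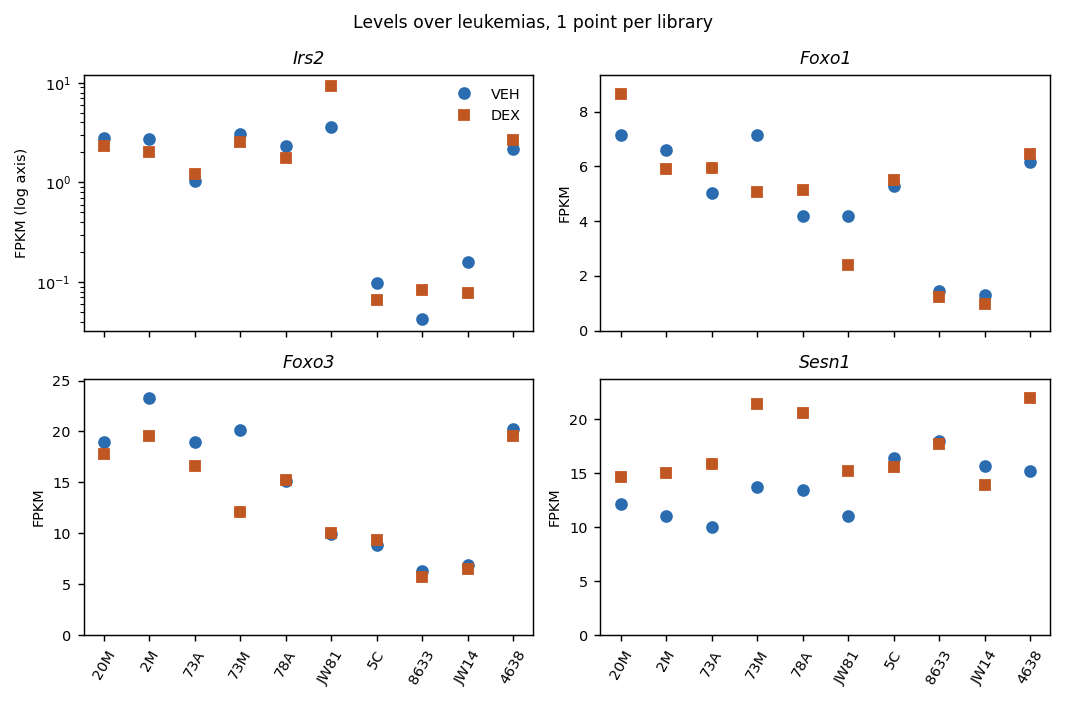
FPKM of *Irs2* (log axis), *Foxo1*, *Foxo3* and *Sesn1* (linear axes from 0) in each leukemia, with a circle for the VEH and a square for the DEX library. *Irs2* lies below 0.2 FPKM in 5C, 8633 and JW14, *Foxo1* is lowest in 8633 and JW14, and *Sesn1* varies least.

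*Sesn3* had the order JW14, 5C, 8633, JW81, 78A, 20M, 2M, 73A and 73M with 2 of 8 pairs apart, 5C from 8633 and JW81 from 78A. *Txnip*, *Ddit4*, *Pik3ip1* and *Sesn1* had no pair apart, but the difference between VEH and DEX widened the ranges of *Txnip*, *Ddit4* and *Pik3ip1*. By mean level the order ran from JW14 to JW81 for *Txnip* and from 5C to 73M for *Ddit4*. It ran from 5C to JW81 for *Pik3ip1* and from 73A to 8633 for *Sesn1*. Pearson's r over the mean log2 levels of the 9 leukemias, as a description, was highest with *Slc16a6* (0.983), *Epb41* (0.981) and *Bbip1* (0.980) for *Txnip*. The best match was *Kdm4a* (0.980) for *Ddit4*, *Cnot8* (0.981) for *Pik3ip1*, *Isg15* (0.993) for *Irs2* and *Gdpd3* (0.876) for *Sesn1*. It was *Dync1h1* (0.972) for *Sesn3*, *Camk1d* (0.992) for *Foxo1* and *Wdr20* (0.987) for *Foxo3*. Among the members the highest r was that of *Irs2* and *Pik3ip1*, 0.964. These points share libraries and their depth. Each best match is the highest r among all genes tested over only 9 leukemias. No baseline for such a highest value was computed, so the matches are no evidence of shared regulation.

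Lists of 126 other genes of the same pathways held 102 genes tested. Between DEX and VEH 10 rose and 10 fell, which is 19.6% against 13.0% of all genes. These counts depended on single leukemias: without 20M 6 rose and 1 fell, 6.86% against 5.96% of all genes. Without 2M 13 were called, 12.75% against 6.52%, without 73A 12, 11.76% against 6.76%, and without 73M 12, 11.76% against 7.47%. Without 5C 24 were called, 23.53% against 18.00%, and DESeq2 called 29, 28.43% against 19.13%. With a term for the libraries with ribosomal RNA counts 5 rose and 1 fell, 5.88% against 4.10%. The lists were drawn up with earlier results of these data known and are not independent evidence of a direction. The median log2 difference of all genes was 0.0039.

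The thioredoxin, arrestin and MondoA list had the most calls, 5 of 12 genes tested, 1 higher and 4 lower, with a median log2 difference of 0.06. *Mlxip*, which encodes the glucose-sensing activator MondoA, rose from 6.51 ± 2.16 to 13.2 ± 7.01 FPKM (SD, n = 9), a log2 difference of 0.95 with a standard error of 0.14 and an adjusted p of 0.00268 (edgeR), higher in 9 of 9 leukemias. *Mlx*, the partner of MondoA, fell from 16.7 ± 2.47 to 12.7 ± 2.61 FPKM (SD, n = 9) with an adjusted p of 0.00715 (edgeR), lower in 9 of 9. *Hk2*, a hexokinase of glycolysis, fell from 3.90 ± 1.90 to 1.98 ± 0.89 FPKM, a log2 difference of -0.93 (adjusted p 0.0272, edgeR), lower in 8 of 9. The glucose transporter gene *Slc2a3* fell by 0.30 on the log2 scale (adjusted p 0.0326, edgeR) and *Txnrd1*, thioredoxin reductase, was the fifth gene called. In edgeR the other 7 genes of the list did not pass, and DESeq2 called 7 of the 12.

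Of the FOXO target genes 3 of 21 rose and 1 fell, with a median log2 difference of 0.03. The death genes *Bbc3* (2.26 ± 1.38 to 5.50 ± 1.90 FPKM, SD, n = 9) and *Bcl2l11* (6.84 ± 2.17 to 13.8 ± 5.12 FPKM) had log2 differences of 1.48 and 1.04, adjusted p 0.0104 and 0.00247 (edgeR), and were higher in 9 of 9 leukemias. *Cited2*, a transcriptional coregulator, rose by 0.45 (adjusted p 0.00528, edgeR), also in 9 of 9. *Tnfsf10*, which encodes the death ligand TRAIL, fell by 0.61 (adjusted p 0.048, edgeR). Its log2 difference was -1.07 in the 4 leukemias without ribosomal RNA counts and -0.25 in the 5 with them, and the call held in 1 of 9 fits that left out a leukemia. The list of FOXO relatives and regulators had 1 of 9 genes called, *Skp2*, a ubiquitin ligase subunit, which fell by 0.36 (adjusted p 0.0437, edgeR), and a median of 0.07.

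**Figure D4:**
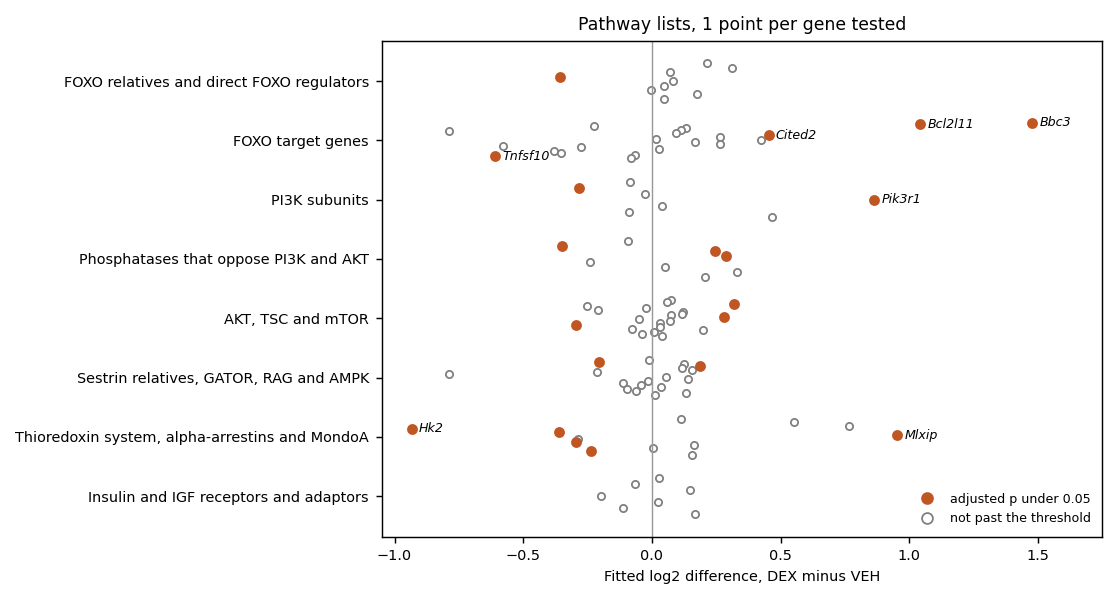
Fitted log2 difference, DEX minus VEH, of the 102 genes tested in 8 pathway lists, 1 point per gene. Filled points passed an adjusted p of 0.05 and names are given for differences over 0.4 in size. *Bbc3*, *Bcl2l11*, *Mlxip* and *Pik3r1* lie farthest to the right and *Hk2* farthest to the left.

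Among 7 PI3K subunits tested, *Pik3r1*, the regulatory subunit p85 alpha, rose and *Pik3cd*, the catalytic subunit of leukocytes, fell, with a list median of -0.03. *Pik3r1* went from 21.6 ± 8.14 to 44.6 ± 27.7 FPKM (SD, n = 9), higher in 8 of 9 leukemias, a log2 difference of 0.86 with a standard error of 0.17 (adjusted p 0.00987, edgeR). *Pik3cd* had a log2 difference of -0.28 (adjusted p 0.0213, edgeR). Of 8 phosphatases that oppose PI3K and AKT tested, *Inpp5k* (0.29) and *Inpp5d* (0.24) rose and *Inpp4b* (-0.35) fell on the log2 scale, with a median of 0.13.

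Of 20 AKT, TSC and mTOR genes tested, *Akt2* (0.32) and *Mapkap1* (0.28), an mTORC2 subunit, rose and *Rheb* (-0.29), the activator of mTORC1, fell on the log2 scale, with a median of 0.04. The list of sestrin relatives, GATOR, RAG and AMPK had 2 of 18 genes called, *Mios* (0.19), a GATOR2 subunit, higher and *Flcn* (-0.20), the folliculin gene, lower, with a median of 0.00. Of 7 insulin and IGF receptor and adaptor genes 0 passed in edgeR, where 2 had an unadjusted p under 0.05, and 1 passed in DESeq2, and the median was 0.02. *Grb2*, the most abundant of them, was at 37.4 ± 8.85 and 40.2 ± 10.6 FPKM (SD, n = 9, adjusted p 0.123, edgeR).

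Of these 20 calls, *Bcl2l11*, *Bbc3*, *Cited2*, *Pik3r1*, *Akt2*, *Mlxip* and *Mlx* passed with any 1 leukemia left out. *Rheb* and *Flcn* did not without 20M, *Mapkap1* without 20M or 2M, *Pik3cd* without 20M, 2M or 73M, and *Hk2* without 20M, 2M, 73A or 73M. The other 8 were lost without 5 to 8 of the 9 leukemias in turn. With a term for the libraries with ribosomal RNA counts 6 of the 102 genes passed, *Bcl2l11*, *Bbc3*, *Cited2*, *Pik3r1*, *Mlxip* and *Mlx*. In the 4 leukemias without such counts 7 passed, 6.86% against 4.19% of all genes, namely *Bcl2l11*, *Pik3r1*, *Mlxip*, *Tnfsf10*, *Pik3cd*, *Hk2* and *Ccr7*, and *Bbc3* (adjusted p 0.0786, edgeR), *Cited2* (0.119) and *Mlx* (0.115) did not. The fitted log2 difference in these 4 and in the 5 with such counts was 0.94 and 1.92 for *Bbc3*, 0.39 and 0.50 for *Cited2* and -0.26 and -0.45 for *Mlx*. In the 5 leukemias with them 0 passed in edgeR, against 0.13% of all genes, and 28 had an unadjusted p under 0.05.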

How the data were processed

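RNA sequencing of 20 libraries was deposited as 1 table of RSEM expected counts (the file is named for FPKM, but its values are counts that need not be whole) per Ensembl gene. By the study's methods and the submitters' processing notes, the authors aligned reads with Bowtie2 and quantified them with RSEM on mm10. The deposited expected counts carry no normalization. Columns were matched to leukemias by name. The DEX column of 73A matched its leukemia but no single title exactly, and those of 2M and 4638 differed from the title in a last letter. FPKM was computed from the unrounded expected counts, the GENCODE M21 exon length of each gene and the library total. A length was known for 96.6% of the 39017 genes, and the others were not tested. Counts were rounded for the fits and where they are printed. The 11339 genes whose mean reached 1 FPKM were fitted in edgeR 4.0.16 (R 4.3.3, TMM, quasi-likelihood test) with leukemia and letter as terms, and p-values were adjusted by Benjamini-Hochberg over all of them. DESeq2 1.42.0 served as an alternative, and other scalings, filters, pseudocounts and left-out leukemias were tried. Intervals on counts were not used, and the floor of 3 counts covers counting error only.

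The members and the lists were chosen with earlier results of these data known. The text names all 8 members, up to 4 called genes per pathway list with the largest log2 difference, or the most abundant gene where none passed, and the genes with the highest Pearson's r over 9 leukemias (3 for *Txnip*, 1 for each other member). *Txnrd1*, *Ccr7* and *Dtx1* were named outside that rule. Expected counts split reads between similar genes by a model, so paralogs carry that uncertainty. The genotype of the donor mice is not reported here.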

Additional observations from a re-analysis of the deposited data

Results flagged for a closer look

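The log2 difference of *Foxo3*, DEX minus VEH, was -0.736 in 73M, where the next lowest leukemia was at -0.252. The gap was 0.596 of the whole range over 9 leukemias, above Dixon's critical value for that number. Of 24 sets of values compared in this way, 1 stood out, and chance gives about 1 in 20. In 73M the summed erythroid markers were at 769 FPKM in VEH and 102 FPKM in DEX and the neutrophil markers at 2298 and 857 FPKM, and the part of these cells in the *Foxo3* value was not tested. Without 73M the fitted log2 difference of *Foxo3* was -0.04, against -0.11 with all 9 leukemias.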

How the results depend on the processing

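The count of genes that passed between DEX and VEH was 1475 and depended on the libraries. It was 465 with a term for libraries with ribosomal RNA counts, 475 with only the 4 leukemias without them, 15 with only the 5 with them and 8 with no leukemia block. With 1 leukemia left out it ran from 676 (without 20M) to 2041 (without 5C), with 739 without 2M, 766 without 73A, 847 without 73M and 966 without JW81. The cause was not tested. It was 1485 with the size factors of DESeq2 in edgeR, 2169 in DESeq2 and 1442 with 4638 added. With no filter on low values it was 1803, but of 28697 genes tested, which is 6.28% against 13.0% in the main fit. Among the pathway lists DESeq2 called 7 of 21 FOXO target genes, against 4 in edgeR, and 2 of 9 FOXO relatives and regulators, against 1. The count of genes that differed among leukemias ran from 8926 to 9885 of the 11339 genes, and was 13412 of the 28697 with no filter. The leukemia term of *Sesn1* passed only with no filter (adjusted p 0.0129, range over the alternatives 0.0129 to 0.261, edgeR and DESeq2). The fitted log2 difference of *Txnip* lay between 1.40 and 1.54, of *Ddit4* between 1.32 and 1.57 and of *Pik3ip1* between 0.68 and 0.79 under all alternatives run. Depth limits *Irs2* in 5C, 8633 and JW14, where it had at most 38 counts. With a pseudocount of 0.1 in place of 1 the log2 range over leukemias went from 2.70 to 5.19 for *Irs2*, from 1.47 to 2.19 for *Sesn3* and from 2.05 to 2.69 for *Foxo1*, which was 2.36 in TPM.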

Other observations

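Leukemia 4638, which was not in the fit, had VEH and DEX levels of 45.6 and 135 FPKM for *Txnip*, 19.2 and 75.6 FPKM for *Ddit4* and 11.5 and 27.4 FPKM for *Pik3ip1*. *Sesn1* was at 15.2 and 22.0 FPKM and *Sesn3* at 1.36 and 1.26 FPKM. *Foxo1* was at 6.17 and 6.45 FPKM. Each value rests on 1 library.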
